A study of Homo sapiens with 9 samples.

Results

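The genes described here are 35 protein-coding genes whose RNA was lower in OVCAR4 cells with either of a pair of shRNAs against MPZL3 than in cells with a scrambled control, among 19951 protein-coding genes and 58735 genes in the count table. OVCAR4 is an established human line of high-grade serous ovarian carcinoma, labelled as WT in genotype in every library. The cells carried a scrambled control shRNA (scr control), shRNA#1-MPZL3 (shMPZL3 #1) or shRNA#2-MPZL3 (shMPZL3 #2), with 3 biological replicates each, and all 3 groups were transduced with lentivirus and selected with puromycin before poly-A RNA sequencing. MPZL3 is an immunoglobulin-family membrane protein, and its knockdown was used to ask what the protein does in ovarian cancer cells. Each knockdown group is a transduced population that held 1 hairpin, in 1 cell line.

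The members were chosen by their measured levels. CPM is the count of a gene per 1000000 counts of its library. Of 11686 protein-coding genes with a mean control CPM of 2 or more (the eligible genes), 1650 (14.1%) had all 6 knockdown libraries below all 3 control libraries. Of these, 181 had a log2 ratio to control of -0.8 or less with shMPZL3 #1, 82 with shMPZL3 #2, and 39 (0.334% of the eligible genes) with both, where the ratio was taken between group means of CPM + 0.5. MPZL3, LGR5, ALPL and PEG10 were left out by name, which gave the 35 members. Because the comparison of each shRNA with scr control chose the genes, the values of that comparison are given below as a description, with no test. The mirrored rule, with the same limits upward, held for 240 genes.

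Several members belong to the machinery of mitosis. Spindly (SPDL1) brings the motor dynein to kinetochores, PBK is a mitotic kinase, and many genes of this kind are transcribed mainly in G2 and M phase through a short promoter element called the cell cycle genes homology region (CHR). ANP32E is a chaperone that removes the histone variant H2A.Z from chromatin, and clustered histone genes are used chiefly in S phase. RDH10 and CRABP1 act on retinoids, the vitamin A derivatives: RDH10 oxidises retinol to retinal, the first step towards retinoic acid, and CRABP1 binds retinoic acid in the cytoplasm. The remaining members include the giant protocadherin FAT3, the Ras-GAP-related scaffold IQGAP2, the LIM-only transcription cofactor LMO3, and proteins of ion transport, phospholipid transport and proteolysis.

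Promoters were available for 25 of the 35 members and 9624 of the 11686 eligible genes, as 300 bases of RefSeq sequence on GRCh38.p14, with 250 bases before and 50 after the start of the gene. ANP32E, APOA1, CPA6, FAM72B, FAT3, PBK, PREX2, RDH10, SCARA3 and ZMIZ1 had no entry. A pair of mitotic members and a pair of histone members are shown because their promoters carried the elements for which these classes are known, close to the start. Capitals mark matches to the CHR element (TTTGAA), the CCAAT box (CCAAT), the TATA box (TATAAA), the GC box (GGGCGG) and the E box (CACGTG) on either strand.
SPDL1, chr5:169583523-169583822, plus strand: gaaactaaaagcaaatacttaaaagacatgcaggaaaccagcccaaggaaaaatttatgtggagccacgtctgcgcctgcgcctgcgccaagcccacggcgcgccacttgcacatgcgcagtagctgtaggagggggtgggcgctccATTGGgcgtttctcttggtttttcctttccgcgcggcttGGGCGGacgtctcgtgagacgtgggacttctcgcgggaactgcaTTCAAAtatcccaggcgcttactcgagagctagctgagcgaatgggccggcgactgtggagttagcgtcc
DEPDC1, chr1:68497033-68497332, minus strand: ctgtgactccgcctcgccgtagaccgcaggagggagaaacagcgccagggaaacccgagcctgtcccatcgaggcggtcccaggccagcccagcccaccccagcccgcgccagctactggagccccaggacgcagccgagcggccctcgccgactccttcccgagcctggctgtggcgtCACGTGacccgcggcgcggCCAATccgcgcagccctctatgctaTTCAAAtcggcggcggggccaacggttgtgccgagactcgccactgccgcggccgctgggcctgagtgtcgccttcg
HIST1H1E (RefSeq H1-4), chr6:26156079-26156378, plus strand: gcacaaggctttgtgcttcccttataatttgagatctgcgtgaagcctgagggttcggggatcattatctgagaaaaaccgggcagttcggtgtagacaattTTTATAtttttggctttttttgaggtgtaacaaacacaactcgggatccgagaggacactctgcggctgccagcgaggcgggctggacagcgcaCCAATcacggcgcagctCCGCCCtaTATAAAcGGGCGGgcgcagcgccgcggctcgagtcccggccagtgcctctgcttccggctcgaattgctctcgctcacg
HIST2H2AC (RefSeq H2AC20), chr1:149886668-149886967, plus strand: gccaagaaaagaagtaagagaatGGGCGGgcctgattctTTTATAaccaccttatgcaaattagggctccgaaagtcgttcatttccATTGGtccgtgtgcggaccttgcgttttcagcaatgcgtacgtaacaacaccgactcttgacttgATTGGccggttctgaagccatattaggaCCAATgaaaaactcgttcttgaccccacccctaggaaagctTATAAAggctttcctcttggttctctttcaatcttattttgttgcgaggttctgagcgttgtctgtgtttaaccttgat

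Starts here are those of RefSeq, which lie 139 bases inside the gene bounds of the count table for SPDL1 and for DEPDC1, and 25 and 57 bases outside them for HIST1H1E and HIST2H2AC. The CHR match began 20 bases before the RefSeq start in SPDL1 and 27 bases before it in DEPDC1. A CCAAT match lay upstream of it in each, beginning 103 bases before that start in SPDL1 and 52 in DEPDC1. In both histone genes a TATA match began 29 bases before the RefSeq start, with CCAAT matches further upstream. UPK1B was the other member with a CHR match, so 3 of 25 members (12.0%) held one beside 9.352% of the eligible promoters. CENPV, also grouped under cell division, had a promoter entry with no CHR match and no CCAAT match, and PBK and FAM72B had no entry. The TATA box was found in 2 of 25 members (8.0%), the histone genes printed above, beside 5.081% of eligible promoters.

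The other motifs were at shares close to those of all eligible promoters, or rested on few genes. CCAAT was in 10 of 25 members (40.0%) beside 36.83%, and the GC box in 17 (68.0%) beside 72.06%. The E box was in 2 (8.0%, DEPDC1 and PPARGC1A) beside 10.27%. The E2F forms TTTCCCGC and TTTGGCGC were in 1 member (S1PR5) and 0 members, beside 2.722% and 1.133%. The TEAD motif GGAATG, the element of the Hippo pathway factors, was in 5 members (20%: TRHDE, UPK1B, KLK14, TNNT2 and SNURF) beside 10.63%. The TCF/LEF motif ATCAAAG, the element of Wnt signalling, was in 0 of 25 beside 1.33%. Median GC content was 64.33% over the members' promoters and 65.67% over eligible promoters. These matches describe letters in a fixed window and were not tested as binding sites.

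MPZL3 itself checks the labels. It was at 26.13, 29.78 and 28.39 CPM with scr control, 5.701, 7.148 and 6.085 with shMPZL3 #1, and 13.7, 18.47 and 12.97 with shMPZL3 #2, so all 6 knockdown libraries were below all 3 controls. MPZL3 was left at 22.46% of its control level with shMPZL3 #1 and 53.54% with shMPZL3 #2, and this difference between the shRNAs passed the test (log2 difference, #2 minus #1, 1.28, SE 0.16, adjusted p = 5.72e-05, edgeR quasi-likelihood test, n = 3 per group). The 9 libraries held 15040102 to 27835841 counts. The epithelial markers of an ovarian carcinoma line were present, 8 of 9 at 1 CPM or more in some library, with WT1 the exception at 0.645 CPM or less. Summed fibroblast markers were low but differed between groups, at 18.35 to 22.63 CPM with scr control, 41.31 to 62.73 with shMPZL3 #1 and 33.25 to 37.15 with shMPZL3 #2, where COL1A1, LUM and COL1A2 passed 1 CPM, PDGFRB stayed at or under 0.389 and DCN was at 0. Of these 3 genes, 3 rose with shMPZL3 #1 and 2 with shMPZL3 #2. Summed endothelial markers were at 7.495 to 15.89 CPM and leukocyte markers at 0.8894 to 3.496 CPM over all libraries, with LYZ and CD68 at 0.0492 or less. Of 3 endothelial markers tested 0 passed with shMPZL3 #1 and 1 rose with shMPZL3 #2, neither of 2 leukocyte markers passed with either, and of 8 epithelial markers 3 rose and 1 fell with shMPZL3 #1 and 0 passed with shMPZL3 #2. Their part in the members' levels was not tested. In these bulk libraries, fewer cells of one kind and less RNA per cell cannot be told apart.

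Over the 35 members, the log2 ratio to scr control ran from -1.6 to -0.82 with shMPZL3 #1 (median -1.02) and from -1.85 to -0.8 with shMPZL3 #2 (median -0.98), where the medians of all eligible genes were -0.01 and -0.03. The median member was left at 48.12% of its control level with shMPZL3 #1 and 48.49% with shMPZL3 #2, and 18 members were under 50% with both. FAT3 was the most reduced member by the mean of its log2 ratios, and PRTFDC1 the least. This order depends on the 0.5 CPM added, which draws the ratios of low genes towards 0. By percent of control, PNPLA5 (21.53% and 34.92%) and TNNT2 (27.44% and 33.26%) were among those left lower than FAT3 (32.71% and 36.73%). At the threshold, the weaker of the log2 ratios was -0.804 for PPARGC1A, -0.808 for FAM72B and -0.808 for PRTFDC1 just inside, and -0.799 for ATP6V1C2 and -0.796 for MTMR10 just outside.

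**Figure D1:**
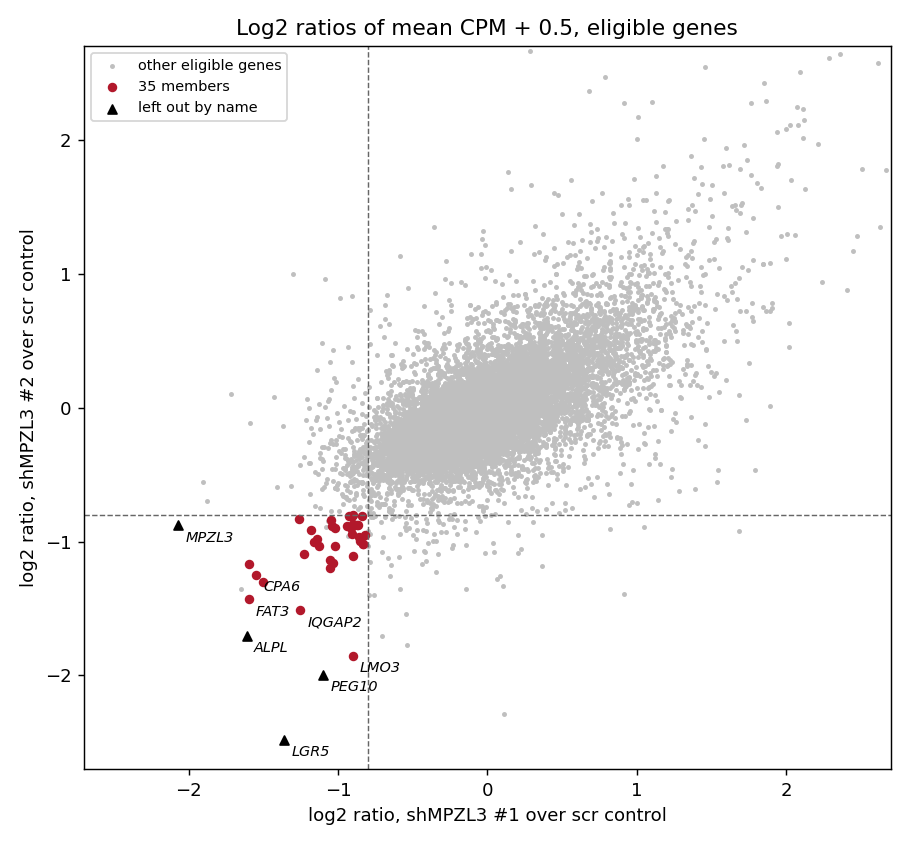
Log2 ratio to scr control with shMPZL3 #2 (vertical axis) against that with shMPZL3 #1 (horizontal axis) for the eligible genes (grey), the 35 members (red) and the 4 genes left out by name (black triangles), with dashed lines at -0.8. The members fill the lower left corner by construction, with LMO3 lower with shMPZL3 #2 and FAT3 near the diagonal; 17 eligible genes lie beyond the plotted range of 2.7 in either direction.

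The separation that the rule required was narrow for some members. The lowest control library was 1.103 times (CACHD1) to 2.254 times (FAT3) the highest knockdown library, with a median of 1.463. The median CV over the 3 controls was 13.169% for the members beside 7.026% for eligible genes. The quartiles overlapped, at 6.432% and 21.763% for the members and 4.041% and 12.015% for eligible genes. The members' median control level was 20.33 CPM beside 33.63 CPM, and 10 members had a mean control level under 5 CPM. In all, 2 members had a library with fewer than 10 counts, and the lowest count was 5. Compared per kilobase of exon (RPKM), control levels ran from 73.6 for ANP32E, 39.01 for SPDL1 and 36.31 for UPK1B down to 0.4775 for SPA17.

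Libraries of a group did not contribute equally. The third shMPZL3 #1 library was the lowest of its group for 25 of 35 members, and the lowest for 32.24% of eligible genes. Members took 0.06314% of its counts, where the other shMPZL3 #1 libraries gave 0.0923% and 0.08894%, the shMPZL3 #2 libraries 0.07195% to 0.09114%, and the scr control libraries 0.1576% to 0.1758%. This share was lowest in the third library of every group. The third scr control library was the lowest of its group for 19 members, beside 36.42% of eligible genes. For the third shMPZL3 #2 library these were 16 members and 30.56%. A link to the replicate number was not tested for the members. The first scr control library was the highest of its group for 22 members, beside 40.22% of eligible genes. Applied without that shMPZL3 #1 library, the rule gave 26 genes, 24 of them among the 35. Applied without the first control library, it gave 30, of which 26 were members. Over the 9 applications that left out 1 library each, 12 members were kept every time (ANP32E, RDH10, FAT3, ZMIZ1, IQGAP2, ATP8B2, S1PR5, CPA6, APOA1, PNPLA5, CRABP1 and TNNT2) and 23 were lost at least once.

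**Figure D2:**
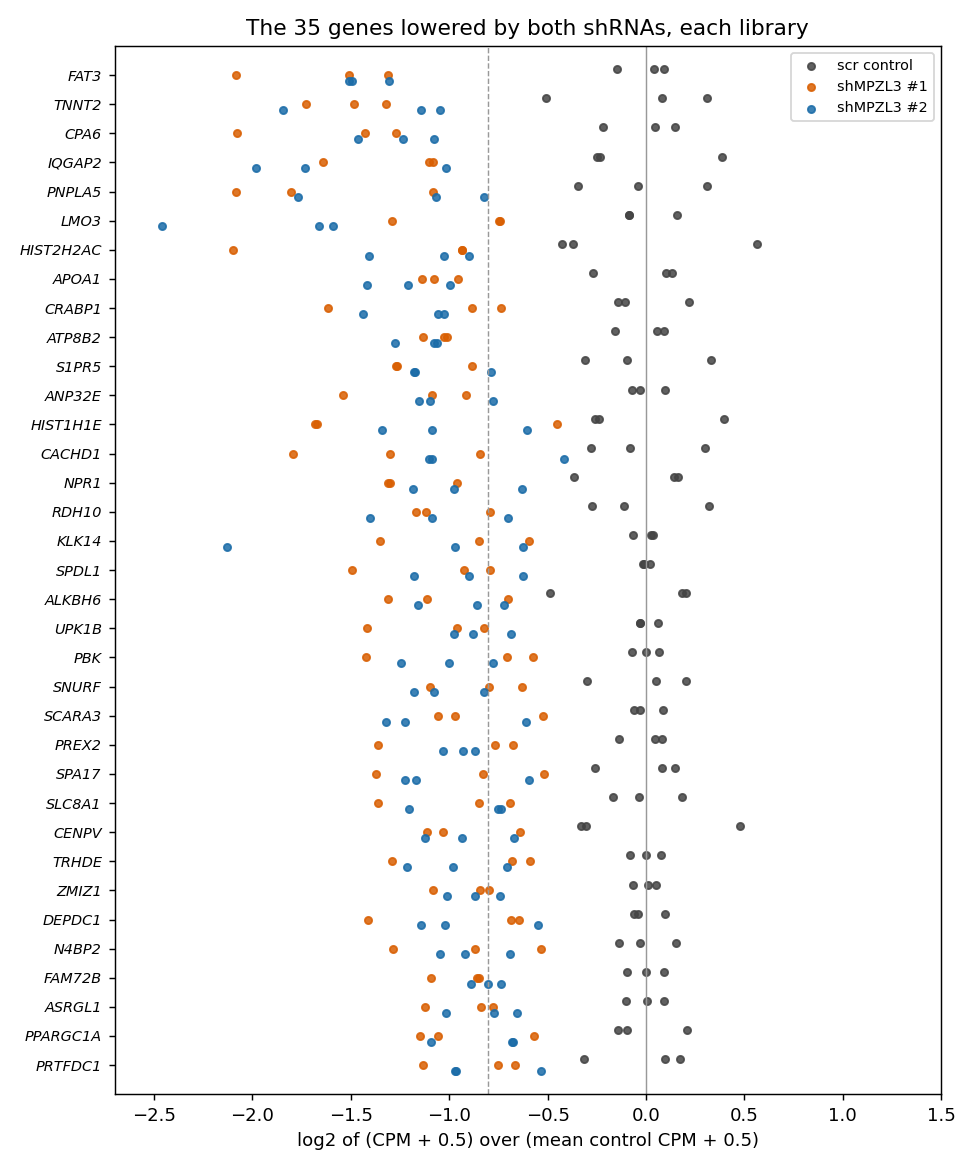
Level of each member in each of the 9 libraries, as the log2 of (CPM + 0.5) over the mean control (CPM + 0.5), with members ordered from the most to the least reduced. The knockdown points (orange and blue) lie to the left of every control point (grey) in each row because the rule required it, the dashed line marks -0.8, and LMO3 is the row where the blue points lie apart from the orange ones.

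The members grouped under mitosis and cell division, after the members were seen, were SPDL1, DEPDC1, PBK, CENPV and FAM72B. SPDL1 (ENSG00000040275, chr5:169583634-169604778) had 189.4, 184.6 and 185.1 CPM with scr control, 107.6, 97.93 and 66.0 with shMPZL3 #1, and 99.65, 120.6 and 81.94 with shMPZL3 #2. Its control libraries agreed within a CV of 1.403%, while the third library of each shRNA was the lowest of its group. The log2 ratios of SPDL1 were -1.04 and -0.88 with shMPZL3 #1 and #2. DEPDC1 (ENSG00000024526, chr1:68474152-68497221), a DEP-domain protein known from dividing cancer cells, had 164.8, 184.0 and 167.0 CPM with scr control, 106.9, 110.0 and 64.41 with shMPZL3 #1, and 84.63, 117.5 and 77.74 with shMPZL3 #2. Its ratios were alike with both shRNAs, at -0.87 and -0.88. PBK (ENSG00000168078) had 55.69, 58.65 and 61.44 CPM with scr control, 39.16, 35.74 and 21.58 with shMPZL3 #1, and 29.06, 33.93 and 24.46 with shMPZL3 #2. The control level of PBK was 27.06 RPKM, close to the 29.12 RPKM of DEPDC1. CENPV, a centromere protein, had a mean log2 ratio over both shRNAs of -0.906. FAM72B has near-identical copies, so its reads are uncertain. Its copies FAM72A, FAM72C and FAM72D fell with shMPZL3 #1 (log2 fold changes -1.13, -1.03 and -0.83, adjusted p = 0.00271, 0.0362 and 0.0458, edgeR) and had -0.74, -0.55 and -0.47 with shMPZL3 #2, where none passed.

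Other genes of the cell cycle fell with the knockdown too, without meeting the rule. Across all genes, 16.8% rose and 15.3% fell with shMPZL3 #1 and 9.36% rose and 5.8% fell with shMPZL3 #2, of 16928 tested. Of 53 G2/M genes of the Seurat list tested, other than its 1 member ANP32E, 51 fell with shMPZL3 #1 (median log2 fold change -0.71) and 27 with shMPZL3 #2 (median -0.42), and 0 rose with either. The comparison of the shRNAs themselves gave 20 of the 53 higher with shMPZL3 #2 and 0 lower. Of 42 S phase genes, 34 fell with shMPZL3 #1 and 10 with shMPZL3 #2, 0 rose with either, and the direct comparison gave 12 higher and 0 lower for shMPZL3 #2. Of 18 genes of replication licensing, the loading of the MCM helicase on DNA, 14 fell with shMPZL3 #1 and 2 with shMPZL3 #2, 0 rose, and 15 were higher and 0 lower in the direct comparison. The counts for shMPZL3 #1 against control stayed within 1.5 times whichever library was left out, and the others did not. Without the third shMPZL3 #2 library, 10 G2/M and 1 of the S phase genes fell with shMPZL3 #2. Without the third shMPZL3 #1 library, 5 G2/M, 1 S phase and 4 licensing genes were higher with shMPZL3 #2 in the direct comparison, and without the first shMPZL3 #2 library these were 5, 1 and 2. Both knockdown contrasts share the control libraries.

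Chromatin was represented by ANP32E and the histone genes HIST1H1E and HIST2H2AC. ANP32E (ENSG00000143401, chr1:150218417-150236156) was the most abundant member, with 283.6, 259.9 and 252.5 CPM with scr control, 124.7, 140.4 and 90.86 with shMPZL3 #1, and 123.7, 154.4 and 119.0 with shMPZL3 #2. Every knockdown library lay below the lowest control, which was 1.636 times the highest of them. HIST2H2AC (ENSG00000184260, chr1:149886975-149887364), an intronless H2A gene whose promoter is printed above, had 4.149, 1.838 and 1.928 CPM with scr control, 1.14, 1.142 and 0.2341 with shMPZL3 #1, and 0.6825, 1.182 and 1.042 with shMPZL3 #2. Its mean control level rests on the first library, and only 254 counts over all 9 libraries stand behind the gene. The linker histone gene HIST1H1E had a mean log2 ratio of -1.061. Transcripts of clustered histone genes mostly end without a poly-A tail, and the libraries were poly-A selected. Of 20 eligible clustered histone genes, 2 were members (10.0%), beside 0.334% of all eligible genes before 4 were left out by name. HIST1H1E had 394 counts in all, so both rest on few counts, and nothing about the family is read from them.

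The relatives of ANP32E moved in part with it. ANP32A fell with both shRNAs (log2 fold change -0.85, adjusted p = 8.84e-05, and -0.55, adjusted p = 0.00578, edgeR), while ANP32B fell with shMPZL3 #1 (-0.57, adjusted p = 0.00196) and had -0.02 with shMPZL3 #2 (adjusted p = 0.936). For ANP32B the shRNAs themselves differed (0.55, adjusted p = 0.00574), whereas ANP32E had 0.18 (95% interval -0.1 to 0.47, adjusted p = 0.406). DEPDC1B, the paralogue of DEPDC1, fell with both as well (-0.79, adjusted p = 0.000669, and -0.56, adjusted p = 0.0156).

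RDH10 and CRABP1 were the members of retinoid handling. RDH10 (ENSG00000121039) had 115.8, 85.67 and 76.73 CPM with scr control, 53.28, 40.95 and 42.41 with shMPZL3 #1, and 56.8, 43.33 and 34.78 with shMPZL3 #2. Its libraries spread widely within each group (control CV 22.07%), with the first library the highest in all 3. CRABP1 (ENSG00000166426, chr15:78340324-78348230) was a low gene, with 2.658, 2.574 and 3.457 CPM with scr control, 1.535, 1.34 and 0.6085 with shMPZL3 #1, and 1.17, 1.133 and 0.7544 with shMPZL3 #2. It was left at 40.09% and 35.18% of control. Of 15 other retinoid genes tested, from a list of 21 chosen after the members were known, 1 rose and 1 fell with shMPZL3 #1, and 2 rose and 2 fell with shMPZL3 #2. That list left out RDH13 and RDH14, relatives of RDH10. RDH13 had 0.18 with shMPZL3 #1 (adjusted p = 0.194) and rose with shMPZL3 #2 (0.38, adjusted p = 0.0164, edgeR). RDH14 had -0.09 and -0.24 and passed with neither. CRABP2, which delivers retinoic acid to nuclear receptors, fell with shMPZL3 #2 (-0.93, adjusted p = 7.09e-05) and had -0.22 with shMPZL3 #1 (adjusted p = 0.183), and the shRNAs differed for it (-0.71, adjusted p = 0.000922). DHRS3, which reduces retinal back to retinol, rose with shMPZL3 #2 (1.33, adjusted p = 0.000561) and had -0.03 with shMPZL3 #1 (adjusted p = 0.946), a difference that passed between the shRNAs (1.36, adjusted p = 0.000552). ALDH1A3, which oxidises retinal to retinoic acid, rose with both (0.83, adjusted p = 0.0438, and 1.15, adjusted p = 0.0155). It was at 3.436, 4.412 and 5.053 CPM with scr control and 4.824, 5.857 and 12.59 with shMPZL3 #1. Its rise with shMPZL3 #1 thus leans on the third library. Of the receptors, RXRA fell with shMPZL3 #2 (-0.44, adjusted p = 0.0433) and RARG with shMPZL3 #1 (-0.37, adjusted p = 0.0436).

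The surface and adhesion members were FAT3, UPK1B, SCARA3, TRHDE and CACHD1. FAT3 (ENSG00000165323, chr11:92352096-92896470), an atypical cadherin, had 107.0, 103.0 and 90.56 CPM with scr control, 34.86, 40.16 and 23.31 with shMPZL3 #1, and 34.91, 40.18 and 35.31 with shMPZL3 #2. It had the widest gap between control and knockdown libraries of all members, and was left at 32.71% and 36.73% of control. Its relatives did not share a direction. FAT2 rose with shMPZL3 #1 (0.41, adjusted p = 0.00741) and fell with shMPZL3 #2 (-0.7, adjusted p = 0.000306), FAT4 rose with shMPZL3 #1 (0.5, adjusted p = 0.0157) and had 0 with shMPZL3 #2 (adjusted p = 0.993), and FAT1 had 0.06 and -0.31 and passed with neither. Per kilobase, FAT2 was the higher gene in control cells at 32.41 RPKM, where FAT3 had 5.197 RPKM.

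UPK1B (ENSG00000114638, chr3:119173517-119205153), a tetraspanin of the urothelial plaque, had 80.52, 85.86 and 80.45 CPM with scr control, 46.26, 42.04 and 30.47 with shMPZL3 #1, and 41.54, 51.01 and 44.51 with shMPZL3 #2. The control libraries were close together and the third shMPZL3 #1 library was the lowest of all 9. SCARA3 (ENSG00000168077), a scavenger receptor-like protein, had 80.72, 87.83 and 79.12 CPM with scr control, 57.4, 41.84 and 39.41 with shMPZL3 #1, and 53.97, 32.75 and 35.06 with shMPZL3 #2. The first library of each shRNA group was its highest. TRHDE (ENSG00000072657, chr12:72087266-72670757), the membrane peptidase that inactivates thyrotropin-releasing hormone, had 144.8, 137.0 and 129.5 CPM with scr control, 85.47, 91.08 and 55.7 with shMPZL3 #1, and 69.23, 84.01 and 58.77 with shMPZL3 #2. The overlapping TRHDE-AS1 on the opposite strand had log2 ratios of -0.65 and -0.48 from 9771 counts, where TRHDE had 16896. CACHD1, a protein related to calcium channel subunits, had a mean log2 ratio of -1.046.

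IQGAP2, PREX2, NPR1 and S1PR5 act in signalling. IQGAP2 (ENSG00000145703, chr5:76403249-76708132) had 55.82, 36.08 and 35.7 CPM with scr control, 19.86, 19.56 and 13.29 with shMPZL3 #1, and 20.82, 12.46 and 10.42 with shMPZL3 #2. The first scr control library stood above the other 2 (control CV 27.05%), and the gene remained among the members without it. IQGAP2 was left at 41.31% and 34.24% of control. IQGAP1, at 34.5 RPKM in control cells beside 5.381 for IQGAP2, had -0.02 and -0.18 and passed with neither shRNA, and IQGAP3 fell with shMPZL3 #1 (-0.38, adjusted p = 0.023) and had -0.11 with shMPZL3 #2 (adjusted p = 0.595).

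Some relatives of the receptor members rose with 1 or both shRNAs. NPR1, the guanylyl cyclase receptor for atrial natriuretic peptide, had a mean log2 ratio of -1.045, while NPR3, the receptor that clears natriuretic peptides, rose with shMPZL3 #1 (0.96, adjusted p = 7.53e-05) and had 0.08 with shMPZL3 #2 (adjusted p = 0.727). NPR2, at a mean of 1.287 CPM with scr control, had -0.65 and -0.7 and passed with neither (adjusted p = 0.255 and 0.288, edgeR). S1PR5, a receptor for sphingosine-1-phosphate, had a mean log2 ratio of -1.081. S1PR1 rose with both shRNAs (1.98, adjusted p = 0.00719, and 2.17, adjusted p = 0.00801), from a mean of 0.3119 CPM with scr control to 1.305 and 1.431 CPM. S1PR2 and S1PR3 rose with shMPZL3 #1 (0.96, adjusted p = 0.00013, and 0.45, adjusted p = 0.0196) and did not pass with shMPZL3 #2 (0.38, adjusted p = 0.0867, and 0.16, adjusted p = 0.489). PREX2, a Rac exchange factor, had a mean log2 ratio of -0.922, and its paralogue PREX1 had 0.13 and 0.03 and passed with neither.

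ZMIZ1, LMO3 and PPARGC1A regulate transcription. ZMIZ1 (ENSG00000108175, chr10:79069035-79316528), a coactivator with a SUMO-ligase-type zinc finger, had 65.03, 63.11 and 59.91 CPM with scr control, 35.91, 29.38 and 34.78 with shMPZL3 #1, and 37.34, 30.87 and 34.09 with shMPZL3 #2. The libraries were tight within each group, and the 2 knockdown groups lay over each other. Its paralogue ZMIZ2 rose with shMPZL3 #2 (0.54, adjusted p = 0.00354) and had 0.29 with shMPZL3 #1 (adjusted p = 0.0568). PPARGC1A encodes PGC-1alpha, a coactivator of mitochondrial biogenesis, and its related genes PPRC1 and PPARGC1B fell with shMPZL3 #1 (-0.43, adjusted p = 0.0111, and -0.42, adjusted p = 0.0182) and had 0.02 and -0.03 with shMPZL3 #2.

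LMO3 (ENSG00000048540, chr12:16548373-16610594) was the member that differed between the shRNAs in the fit without a replicate block. It had 48.43, 40.77 and 40.89 CPM with scr control, 25.74, 25.66 and 17.46 with shMPZL3 #1, and 14.09, 13.39 and 7.472 with shMPZL3 #2. The 3 shMPZL3 #2 libraries were all below the 3 shMPZL3 #1 libraries, and LMO3 was left at 52.94% of control with shMPZL3 #1 and 26.87% with shMPZL3 #2. The order is opposite to that of MPZL3, which was lower with shMPZL3 #1. LMO3 overlaps MGST1, a gene of the other strand with 22014 counts in all beside 4495 for LMO3. MGST1 had log2 ratios of -0.63 and -0.29, and reads of the overlap cannot be told apart in libraries without strand. Of its relatives, LMO4 had -0.11 and 0.14, LMO1 -0.1 and -1.21, and LMO2 -0.42 and 0.15, and none passed with either shRNA.

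SLC8A1, ATP8B2, PNPLA5 and APOA1 handle ions, phospholipids and lipids. ATP8B2 (ENSG00000143515, chr1:154325553-154351307), a phospholipid flippase, had 39.94, 38.98 and 33.58 CPM with scr control, 18.37, 18.17 and 16.85 with shMPZL3 #1, and 17.7, 15.22 and 17.5 with shMPZL3 #2. All 6 knockdown libraries lay between 15.22 and 18.37 CPM, with the lowest control at 1.827 times the highest of them. APOA1 (ENSG00000118137, chr11:116835751-116837950), the main protein of high-density lipoprotein, had 5.835, 5.975 and 4.388 CPM with scr control, 2.543, 2.184 and 2.294 with shMPZL3 #1, and 1.706, 2.462 and 2.048 with shMPZL3 #2. PNPLA5 (ENSG00000100341, chr22:43879678-43892013), a patatin-like lipase, was at the limit of the counts, with 3.695, 2.16 and 2.793 CPM with scr control, 1.096, 0.2978 and 0.4681 with shMPZL3 #1, and 1.414, 0.4924 and 1.114 with shMPZL3 #2, from 257 counts in all. It was left at 21.53% and 34.92% of control. SLC8A1, the sodium/calcium exchanger NCX1, had a mean log2 ratio of -0.911. The other exchangers of the family rose with both shRNAs from low levels, SLC8A2 from a mean of 0.3631 CPM to 1.353 (adjusted p = 0.0124) and 1.244 (adjusted p = 0.0338), and SLC8A3 from 0.06594 CPM to 0.5017 (adjusted p = 0.0219) and 0.4711 (adjusted p = 0.0399). SLC8B1, the mitochondrial exchanger, rose by 0.47 (adjusted p = 0.0276) and 0.58 (adjusted p = 0.0185) on the log2 scale. Of 22 genes of cholesterol synthesis, none of them a member, 12 fell with shMPZL3 #1 and 7 with shMPZL3 #2, 0 rose with either, and the shRNAs compared directly gave 1 higher and 2 lower for #2. Without the third shMPZL3 #1 library 4 fell with that shRNA, and without the third shMPZL3 #2 library 2 fell with that one.

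The protease members were CPA6 and KLK14. CPA6 (ENSG00000165078), a metallocarboxypeptidase of the extracellular matrix, had 17.57, 13.51 and 16.36 CPM with scr control, 5.569, 6.254 and 3.37 with shMPZL3 #1, and 5.412, 7.239 and 6.431 with shMPZL3 #2. Its lowest control was 1.867 times the highest knockdown library, and the gene was left at 32.03% and 40.22% of control. CPA4, of the same family, went the other way, with 21.01, 37.37 and 46.61 CPM in the control libraries, 144.5, 230.5 and 300.8 CPM in those of shMPZL3 #1, and 100.3, 135.9 and 125.9 CPM in those of shMPZL3 #2. CPA4 rose with both shRNAs (2.66, SE 0.25, adjusted p = 3.11e-06, and 1.8, SE 0.24, adjusted p = 9.41e-05) and was lower with shMPZL3 #2 than with shMPZL3 #1 (-0.87, adjusted p = 0.0184). KLK14, a trypsin-like kallikrein, had a mean log2 ratio of -1.004. Among other kallikreins, KLK5 rose with shMPZL3 #1 (1.44, adjusted p = 5e-05) and KLK10 fell (-0.81, adjusted p = 0.000449), and neither passed with shMPZL3 #2 (0.17 and -0.29).

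**Figure D3:**
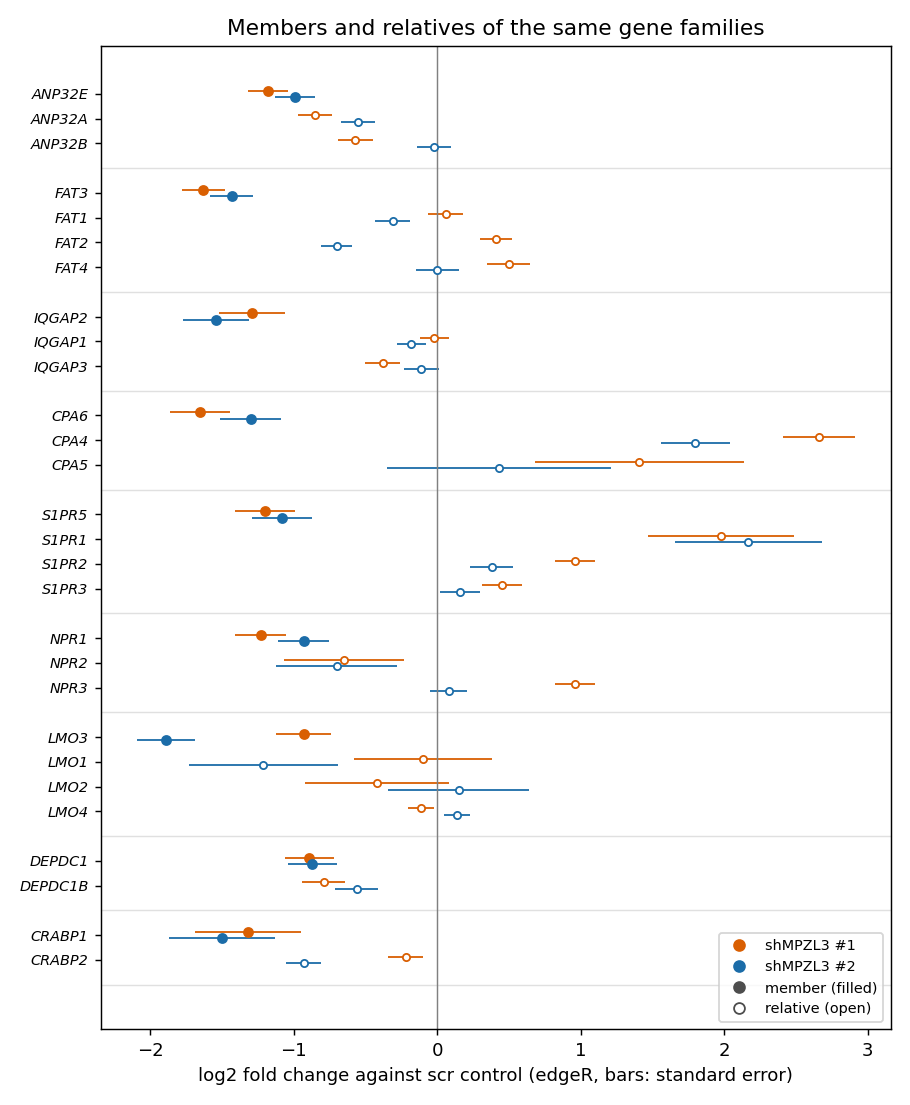
Log2 fold change against scr control (edgeR, bars show the standard error, n = 3 libraries per group) for 9 members (filled) and the tested genes of the same families (open), with shMPZL3 #1 in orange and shMPZL3 #2 in blue. Members lie to the left because they were chosen for it; ANP32A and DEPDC1B lie on the same side as their relatives, and CPA4 and S1PR1 on the opposite side.

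Of 58 relatives listed for 22 members, a list made after the members were known, 47 were tested. With shMPZL3 #1, 11 rose and 12 fell, and with shMPZL3 #2, 7 rose and 4 fell. The 12 include FAM72A, FAM72C and FAM72D, near-identical copies of the member FAM72B, whose reads may not be separate from its own. The 2 that fell with both were ANP32A and DEPDC1B, the 5 that rose with both were CPA4, S1PR1, SLC8A2, SLC8A3 and SLC8B1, and FAT2 was the 1 that passed in opposite directions.

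The remaining members had varied roles. TNNT2 (ENSG00000118194, chr1:201359008-201377762), the cardiac troponin T, had 5.187, 4.366 and 2.726 CPM with scr control, 1.14, 1.34 and 0.8894 with shMPZL3 #1, and 0.78, 1.723 and 1.581 with shMPZL3 #2. The control libraries spread over a CV of 30.61%, and the gene shares its locus with LAD1 on the same strand, which had 36138 counts where TNNT2 had 383. Of 7 other sarcomere genes tested, 1 rose and 2 fell with shMPZL3 #1, 0 passed with shMPZL3 #2, and 1 was higher with shMPZL3 #2 than with shMPZL3 #1. The mean log2 ratio was -0.87 for N4BP2, -0.856 for ASRGL1 (an asparaginase-like enzyme), -0.959 for ALKBH6 and -0.914 for SPA17 (a sperm surface protein). SNURF shares a transcript with SNRPN, which had log2 ratios of 0.07 and 0.01, so its count and its mean log2 ratio of -0.924 are uncertain. With CENPV, FAM72B, LMO3, PBK, RDH10, SNURF, SPA17, TNNT2 and TRHDE, 9 members overlapped a gene with counts of at least 10% of their own. For RDH10 this was RPL7 on the opposite strand, with 123608 counts where RDH10 had 10763, and log2 ratios of -0.7 and -0.37.

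The rule did not set the shRNAs against each other, but it used the levels of both and required each to lie below control, which limits how far members can differ between them. The shares of all genes below are therefore printed beside the counts of members, and nothing about the members as a set is read from them. Of the 35 members, 1 was lower with shMPZL3 #2 than with shMPZL3 #1, beside 7.56% of the 16928 genes tested, and 0 were higher, beside 7.56% (edgeR quasi-likelihood test, adjusted p under 0.05). At an unadjusted p under 0.05, 1 member was lower and 0 higher, beside 14.3% and 15.1% of the genes tested, and DESeq2 called 1 lower and 0 higher, beside 8.64% and 8.73% of 16213 genes. The member was LMO3, with a log2 difference of -0.96 (SE 0.2, 95% interval -1.39 to -0.54, adjusted p = 0.00388). The exact two-sided permutation test of LMO3 over 3 against 3 libraries gave p = 0.1, the smallest it can give, and LMO3 was the 1 member whose shRNA groups did not overlap, with shMPZL3 #2 below. Over all genes tested, 16% had all 3 shMPZL3 #2 libraries below all 3 shMPZL3 #1 libraries and 14% had them above. Among the other 34, a difference was not shown in this fit, which had no replicate block. Of all 35, 22 had a difference above 0 and 12 below 0, with a median of 0.06 beside 0.01 over all genes tested. With the replicate number as a block, CACHD1 was called beside LMO3, higher with shMPZL3 #2 (0.5, adjusted p = 0.0296, edgeR).

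The difference between the shRNAs was measured least closely for members with low counts. Among better counted members the SE did not follow the counts. It was 0.17 for DEPDC1 with 21374 counts, 0.23 for IQGAP2 with 4284 and 0.12 for ATP8B2 with 4273. The 95% interval of the log2 difference lay within 1 in either direction for 27 members and within 0.5 for 12. The same count over all genes was not made, and the rule itself limits the difference. No likeness particular to the members can therefore be read from these counts. The interval was narrow for some members, from -0.18 to 0.3 for ZMIZ1, -0.32 to 0.21 for ATP8B2 and -0.1 to 0.47 for ANP32E. RDH10 had a difference of 0 (-0.36 to 0.37) and DEPDC1 one of 0.02 (-0.35 to 0.38). For low members the interval was wide, from -0.36 to 1.76 for PNPLA5, -0.85 to 1.32 for HIST2H2AC and -1 to 0.64 for CRABP1. FAT3 had 0.19 (-0.12 to 0.51), CPA6 0.36 (-0.09 to 0.81) and IQGAP2 -0.25 (-0.74 to 0.24). SPDL1 had 0.18 (-0.15 to 0.51), PBK -0.12 (-0.49 to 0.25), UPK1B 0.23 (-0.05 to 0.52), SCARA3 -0.17 (-0.53 to 0.2), TRHDE -0.11 (-0.43 to 0.22), TNNT2 0.31 (-0.46 to 1.08) and APOA1 -0.15 (-0.68 to 0.38).

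**Figure D4:**
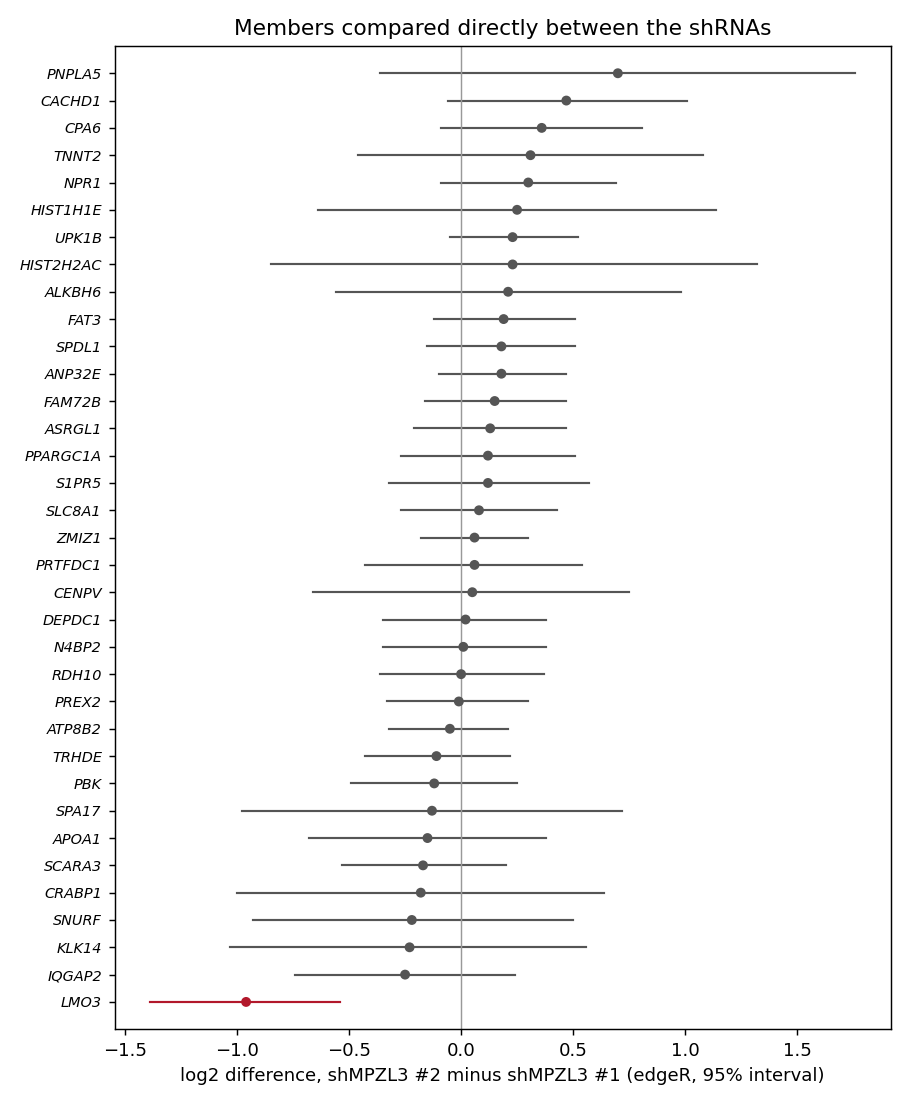
Log2 difference between the shRNAs (shMPZL3 #2 minus shMPZL3 #1, edgeR, points) with its 95% interval (lines) for each of the 35 members, n = 3 libraries per group. LMO3 (red, -0.96) is the member that passed the adjusted threshold in this fit without a replicate block, and the intervals of all the others include 0.

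Chromosome 1 held 8 of the 35 (22.86%, beside 10.45% of eligible genes) and chromosome 8 held 5 (14.29%, beside 3.389%). SCARA3 and PBK were 132844 bases apart with 2 eligible genes between them, CPA6 and PREX2 205733 bases apart with 0 between, and HIST2H2AC and ANP32E 331053 bases apart with 7. The median exonic length of 4586 bases was below the 5219 bases of eligible genes. By gene family, the members held 1 of 203 eligible solute carriers (SLC8A1) and 1 of 31 of the cadherin superfamily (FAT3). They held 0 of 77 ribosomal proteins, 0 of 386 ZNF genes, 0 of 31 kinesins and 0 of 28 potassium, sodium and calcium channels. They also held 0 of 47 collagens, laminins and integrins, 0 of 156 TMEM genes and 0 of 42 HOX, SOX and FOX factors. Of all eligible genes, 0.334% passed the rule before 4 were left out by name. At that share, a count of 0 or 1 in families of this size shows nothing about the members.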

How the data were processed

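RNA from OVCAR4 cells was measured in 9 poly-A libraries made without strand information, 3 per group, each grouped by its label. The authors deposited 1 table of raw counts, 1 column for each library, not normalized. Per the submitters' processing notes the tools were HISAT2 2.0.5 and featureCounts 1.5.0-p3 on hg38. How reads shared by overlapping genes were counted is not given in the sources used here. The deposited gene length column was used for RPKM only. Replicates are biological per the study's methods.

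CPM was computed from column totals, and members were found by the stated rule. The members and gene lists were chosen with earlier results of these data known, and the list of relatives, the retinoid list and the role groups after the members were seen. Counts were tested with edgeR 4.0.16 in R 4.3.3 (TMM, filterByExpr, 16928 genes, 3 groups in 1 quasi-likelihood fit, two-sided, Benjamini-Hochberg over all genes), called at adjusted p under 0.05, with DESeq2 1.42.0 as an alternative, and the fit was tested on simulated data. TMM factors ran from 0.983 to 1.03. No pair of replicates was alike within counting noise (chi-square per gene 3.03 to 21.2). G2/M and S phase lists came from Seurat 5.3.0. Lists were counted without members: G2/M, S phase, replication licensing, cholesterol synthesis, sarcomere, Wnt targets, axon guidance and cell type markers. Members given in full are the 10 most reduced, the 10 with the highest control CPM and those called between the shRNAs (19 genes), and the others are given by their mean log2 ratio or, for FAM72B, PPARGC1A and PRTFDC1, their value at the threshold. Figures and counts were made with Python 3.11.15. Alternatives were the scaling, pseudocount, filters, thresholds, tool, replicate block and leaving out each library; the fit on protein-coding genes only was added after seeing the data. shRNA sequences and proteins are not given here.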

Additional observations from a re-analysis of the deposited data

Results flagged for a closer look

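The effect of the shRNAs on LMO3 differed by the test of the difference itself, with a log2 difference of -0.96 between shMPZL3 #2 and shMPZL3 #1. LMO3 was at 22.95 ± 4.758 CPM (SD, n = 3) with shMPZL3 #1 and 11.65 ± 3.636 CPM (SD, n = 3) with shMPZL3 #2, below 43.36 ± 4.389 CPM (SD, n = 3) in scr control. MPZL3 differed in the opposite direction, by 1.28. The overlapping MGST1 had mean levels of 147.6, 95.34 and 120.7 CPM in scr control, shMPZL3 #1 and shMPZL3 #2, and its part in the result was not tested. Groups of 3 are too small for a search for single outlying libraries, and none was made.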

How the results depend on the processing

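The number of genes that met the rule depended on the limits set. It was 20 with a pseudocount of 2 and 12 with a log2 ratio of -1 or less, all of them among the 35. It was 34 over TMM library sizes (31 shared), 39 over protein-coding totals, 49 with pseudocount 0, and 40 and 25 with a control minimum of 1 and 5 CPM. Leaving out 1 library gave 26 to 52. In the comparison of the shRNAs, LMO3 passed under all 16 alternatives, from -1.14 to -0.73 (adjusted p from 2.91e-09 to 0.0183), and the other 18 named members passed under none (lowest adjusted p = 0.0743). HIST2H2AC and PNPLA5 gave no value with at least 10 counts in every library. Of 590 counts of called genes per list under the alternatives, 442 were within 1.5 times the stated count.

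With the replicate number as a block, 1 member was higher with shMPZL3 #2, CACHD1 (0.5, adjusted p = 0.0296, edgeR), and LMO3 stayed lower (-0.97). Deviations of libraries with the same number correlated at -0.001 to 0.218 over 9 pairs, 3 of them over 0.1, and those with different numbers at -0.147 to 0.067 over 18 pairs, 0 of them over 0.1. Between shMPZL3 #1 and shMPZL3 #2 alone, same-number pairs were at 0.137, 0.218 and 0.097, and different-number pairs at -0.147 to 0.004. Libraries of equal number were thus more alike in the direct comparison, and its calls depend on the block. Whether equal numbers mark cells handled together is not stated, so the block is given as an alternative. The block gave 35 G2/M and 22 S phase genes higher with shMPZL3 #2 than with shMPZL3 #1 (20 and 12 without it), and 17 S phase and 12 cholesterol genes lower with shMPZL3 #2 than in control (10 and 7 without it).

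Low counts limit HIST2H2AC, PNPLA5, SPA17, CRABP1 and SNURF most. Intervals within groups of 3 libraries are wide, and overlapping genes were not separated by strand.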

Other observations

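Developmental signalling lists without a member showed mixed directions. Of 15 Wnt target and feedback genes tested, 4 rose and 5 fell with shMPZL3 #1 and 5 rose and 2 fell with shMPZL3 #2, and the shRNAs compared directly gave 5 higher and 2 lower for #2. With 1 library left out at a time, the Wnt genes that rose with shMPZL3 #2 numbered 2 to 6 and those that fell 0 to 2 (2 and 0 without the first scr control library or without the third shMPZL3 #2 library), and 2 to 4 were higher and 1 to 2 lower in the direct comparison. Of 32 axon guidance genes, 9 rose and 3 fell with shMPZL3 #1, 4 rose and 1 fell with shMPZL3 #2, and the direct comparison gave 5 higher and 6 lower. Without the third shMPZL3 #1 library, 4 axon guidance genes rose with shMPZL3 #1, and 1 rose with shMPZL3 #2 without the first scr control library and 2 without the third. UPK3B, a uroplakin like UPK1B, fell with shMPZL3 #1 (log2 fold change -0.46, adjusted p = 0.0349, edgeR) and had 0.14 with shMPZL3 #2 (adjusted p = 0.598), and it was higher with shMPZL3 #2 than with shMPZL3 #1 (0.6, adjusted p = 0.017). APOE, an apolipoprotein like APOA1, fell with shMPZL3 #1 (-0.39, adjusted p = 0.0271) and had -0.12 with shMPZL3 #2 (adjusted p = 0.575).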
